A study of Mus musculus with 18 samples.

Results

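The respiratory chain subunits described here are the 96 protein-coding rows of the deposited count table whose GRCm38 symbol names a subunit of complexes I to V, out of 55385 rows in all. Members were taken by symbol, from the families *Nduf*, *Sdh*, *Uqcr*, *Cox4* to *Cox8* and *Atp5* in the nucleus and from *mt-Nd1* to *mt-Nd6*, *mt-Cytb*, *mt-Co1* to *mt-Co3* and *mt-Atp6* on the mitochondrial chromosome. Of these, 85 are nuclear and 11 mitochondrially encoded, and 91 (80 nuclear and all 11 mitochondrial) had at least 10 counts in at least 2 libraries and were tested among 14979 genes. The 5 members not tested were *Cox6b2*, *Cox7b2*, *Cox8b* and *Cox8c*, with 34, 0, 1 and 0 counts over all libraries, and a further row named *Atp5o* with 0. *Ndufa4l2*, *Cox7a2l* and *Atp5s* match the symbols although their products are not regarded as core chain subunits, and *Ndufa4*, whose product is now placed in complex IV, was counted with complex I as its symbol reads.

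The cells were bone marrow-derived macrophages (BMDM) of female C57BL/6J mice aged 12 weeks, grown in L929-conditioned medium to day 7. They received vehicle (Veh, 0.1% DMSO), 250 µM hemicholinium-3 (HC3), which blocks choline uptake, or 5 µM RSM-932a (RSM), an inhibitor of choline kinase, for 24 h. Over a further 24 h they stayed naïve (M[0]) or were exposed to IL-4 at 20 ng/mL (M[IL-4]). Each of the 6 groups had 3 libraries of poly-T selected mRNA. The labels name 3 individual mice as the source without tying a replicate number to a mouse, so the p-values measure the spread between these libraries. In bulk RNA of this kind, fewer cells of a type and less RNA per cell cannot be told apart.

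The respiratory chain passes electrons from NADH (complex I) and succinate (complex II) through ubiquinone, complex III and cytochrome c to oxygen at complex IV, and the proton gradient so made drives the ATP synthase, complex V. Most subunits are encoded in the nucleus and imported, while the mitochondrial chromosome encodes hydrophobic core subunits of complexes I, III, IV and V, together with the rRNAs and tRNAs used to translate them. In macrophages, polarization with IL-4 is known to go with increased oxidative metabolism.

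How well a mitochondrial row can be read depends on a copy of mitochondrial sequence in the nuclear genome, because the authors kept only confidently placed read pairs. On chromosome 1, minus strand, a run of pseudogenes repeats *mt-Co2*, *mt-Atp6*, *mt-Co3* and *mt-Nd3* over 99.1% to 99.9% of their transcripts, *mt-Nd4* over 63.6% and *mt-Co1* over 31.3%. The first 75 bases of *mt-Co2*, which encodes a catalytic subunit of complex IV, are shown with those of its copy *Gm28661* to illustrate a pair without any mismatch, followed by a stretch of *mt-Co1* and its copy *Gm29216* around their only mismatch in 483 aligned bases (capital letter, A1066T, counted from 1 at the 5′ end of the *mt-Co1* transcript). Coordinates are on GRCm38. *mt-Co2* lies at chrM:7013-7087 (+), *Gm28661* at chr1:24615491-24615565 (-), *mt-Co1* at chrM:6390-6464 (+) and *Gm29216* at chr1:24616114-24616188 (-).
mt-Co2: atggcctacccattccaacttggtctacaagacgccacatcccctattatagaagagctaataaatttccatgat
Gm28661: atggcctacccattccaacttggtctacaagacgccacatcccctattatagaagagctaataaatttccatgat
mt-Co1: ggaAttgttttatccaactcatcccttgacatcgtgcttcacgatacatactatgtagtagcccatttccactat
Gm29216: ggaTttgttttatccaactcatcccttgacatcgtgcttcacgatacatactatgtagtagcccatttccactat

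Levels were low for the members with such copies. Per length, in Veh M[0], the 4 members with a copy of nearly their whole transcript had 22.99 ± 2.43 RPKM (*mt-Co2*), 18.8 (*mt-Nd3*), 17.4 (*mt-Atp6*) and 15.4 ± 5.20 RPKM (*mt-Co3*, SD, n = 3). The other 7 ranged from 816.2 ± 36.6 RPKM (*mt-Nd4*) through 2204 ± 265.0 (*mt-Cytb*) to 5453 ± 465.8 (*mt-Co1*). Of these 7, *mt-Nd4* and *mt-Co1* also have copies, of 63.6% and 31.3% of their transcripts, while RPKM divide by the whole length. Whether this lowered their RPKM was not measured. Each of the 4 held 2 to 416 counts in a library, where *mt-Co1* held 7348 to 179235. Levels of these 4 therefore cannot be set against those of the other members, and *Gm28661* held 26 to 528 counts of its own. The copy *Gm28661* fell by 3.01 and 1.61 on the log2 scale with HC3 and RSM in M[0]. In M[IL-4] it fell by 3.86 and 2.02. *Gm28438*, the copy of *mt-Nd3*, held 0 to 19 counts and passed with HC3 but not with RSM (-0.75, FDR = 0.272 in M[0] and -1.04, FDR = 0.0904 in M[IL-4]).

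Totals were 17457796 to 19522255 counts per library. The 11 mitochondrial members together took 1.63% to 2.13% of the counts in Veh libraries, 0.0739% to 0.107% with HC3 and 0.454% to 0.628% with RSM, while nuclear members took 0.496% to 0.692% in all 18 libraries. Levels below are in CPM, which is counts relative to the library total scaled by its TMM factor. Differences are log2 fold changes from edgeR's quasi-likelihood test with Benjamini-Hochberg adjustment over all genes tested, where a gene passed at an FDR under 0.05 and was called when its log2 fold change was also at least 1 or at most -1. An exact permutation test of 3 libraries against 3 cannot go below p = 0.1, so none is given for single genes. HC3 and RSM comparisons share the Veh libraries, and an inhibitor effect in M[IL-4] shares libraries with the IL-4 response.

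Both inhibitors lowered the mitochondrially encoded subunit mRNAs, HC3 far more than RSM, while the summed nuclear subunits overlapped with Veh in M[0] and were lower by less in M[IL-4]. Summed over the 11 members, the level was 19574, 17600 and 16214 CPM in the Veh M[0] libraries, 1043, 951.3 and 901.7 with HC3 and 4861, 5452 and 4387 with RSM. In M[IL-4] it was 17589, 23026 and 18542 CPM with Veh, 736.8, 802.1 and 825.4 with HC3 and 4762, 6423 and 4680 with RSM. The 3 treatments did not overlap in either polarization state, and the means with HC3 were 0.0542 (M[0]) and 0.04 (M[IL-4]) of those with Veh, against 0.275 and 0.268 with RSM. Summed over the nuclear members, the level was 5252 ± 308.1 CPM with Veh, 5431 ± 81.7 with HC3 and 5191 ± 87.8 with RSM in M[0], where the groups overlapped. In M[IL-4] the nuclear sum was 6806, 6458 and 7158 CPM with Veh, 6273, 5705 and 5742 with HC3 and 5741, 5722 and 5744 with RSM, so that every inhibitor library was below every Veh library, at 0.868 and 0.842 of the Veh mean. The ratio of mitochondrial to nuclear subunit mRNA thus went from 3.405 ± 0.495 in Veh M[0] to 0.1778 ± 0.0142 with HC3 and 0.945 ± 0.116 with RSM, and from 2.913 ± 0.565 to 0.1339 ± 0.0144 and 0.9223 ± 0.174 in M[IL-4].

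**Figure D1:**
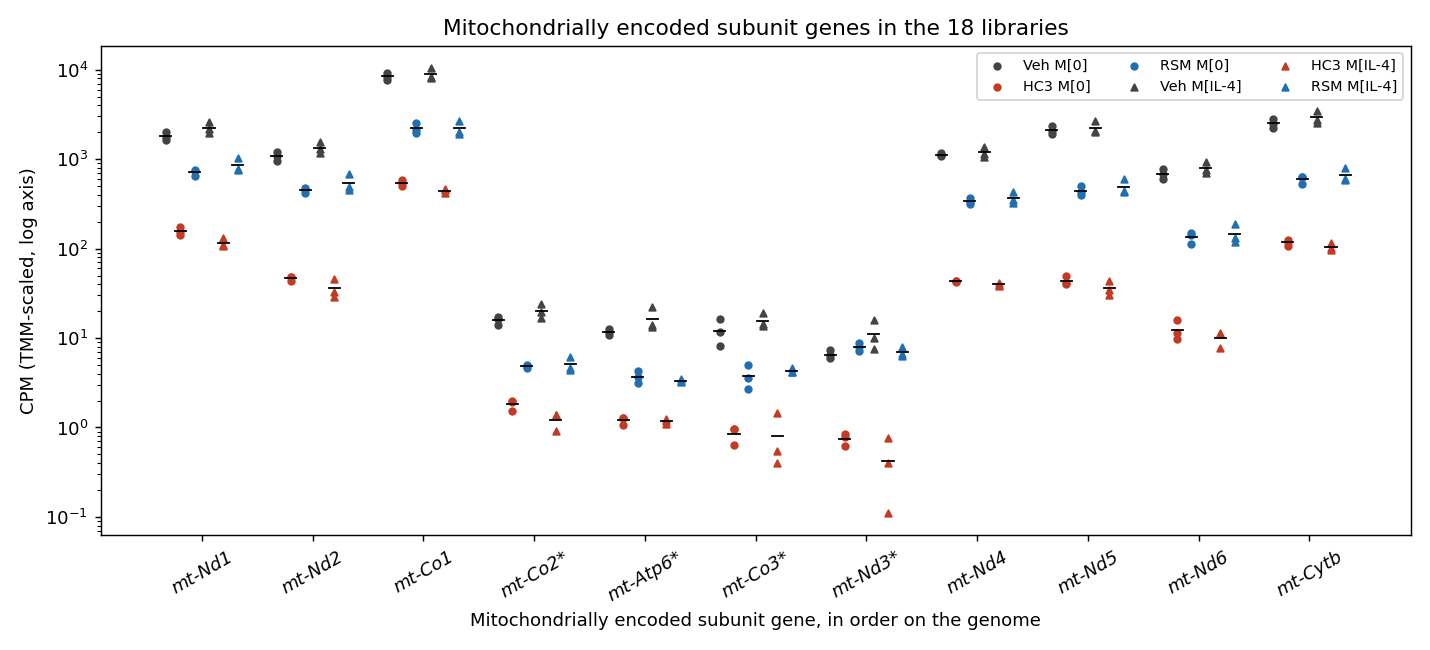
CPM (TMM-scaled, log axis) of the 11 mitochondrially encoded subunit genes, in their order on the mitochondrial chromosome, with 1 point for each of the 18 libraries (circles M[0], triangles M[IL-4]) and a short line at each group mean. For *mt-Co1* the Veh libraries sit between 7742 and 10407 CPM, the RSM libraries between 1926 and 2668 and the HC3 libraries between 415.9 and 579.0.

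*mt-Co1*, the catalytic subunit of complex IV and the mitochondrial member with the highest level per length in Veh M[0], had 9177, 8355 and 7742 CPM in Veh M[0], 579.0, 544.9 and 500.1 with HC3 and 2111, 2561 and 1941 with RSM. It fell by 3.96 ± 0.14 (log2, SE, FDR = 1.11e-13) with HC3 and by 1.93 ± 0.13 (FDR = 6.68e-10) with RSM, and by 4.33 ± 0.14 and 2.01 ± 0.13 in M[IL-4]. The groups were apart in every library.

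*mt-Nd6*, a membrane subunit of complex I and the only subunit gene read from the opposite strand of the mitochondrial chromosome, fell furthest. Its libraries held 779.3, 690.5 and 601.9 CPM in Veh M[0], 15.9, 11.3 and 9.68 with HC3, and 140.7, 150.3 and 113.8 with RSM. In M[IL-4] they held 701.2, 918.8 and 756.6 CPM with Veh, 7.70, 11.01 and 11.3 with HC3 and 120.0, 188.1 and 131.0 with RSM. The log2 fold changes were -5.81 ± 0.22 (FDR = 2.08e-13) and -6.31 ± 0.22 (FDR = 1.82e-13) with HC3 and -2.36 ± 0.18 (FDR = 4.08e-09) and -2.44 ± 0.18 (FDR = 3.18e-09) with RSM. *mt-Nd5*, another membrane subunit of complex I, lies next to it on the chromosome and fell by 5.60 and 5.96 with HC3 and by 2.26 and 2.19 with RSM. *mt-Nd6* shares 2.7% of its annotated length with *mt-Nd5* on the opposite strand. The strand setting of the count is not given in the sources used here. How many read pairs in the *mt-Nd6* row came from RNA of the opposite strand therefore cannot be told.

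At the other end, *mt-Nd1*, the subunit of complex I near the ubiquinone site, had 1993, 1760 and 1630 CPM in Veh M[0], 175.9, 141.1 and 152.5 with HC3 and 753.8, 745.1 and 642.9 with RSM. Among the 7 members with less than 98% of their transcript in a copy, it fell least with HC3, by 3.52 ± 0.14 in naïve and 4.27 in IL-4-polarized cells, and *mt-Nd2* fell least with RSM, by 1.27 and 1.32. *mt-Cytb*, the only mitochondrial gene of complex III, held 2837, 2493 and 2233 CPM in Veh M[0], 126.2, 117.9 and 107.3 with HC3 and 631.5, 627.7 and 532.4 with RSM, and fell by 4.43 and 2.08. In these 7 genes the median log2 fold change was -4.54 and -4.91 with HC3 (M[0], M[IL-4]) and -1.93 and -2.01 with RSM. In the 4 whose transcripts are nearly all copied on chromosome 1, it was -3.20 and -4.16 with HC3 and -1.67 and -1.92 with RSM.

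*mt-Nd3* was the exception for RSM. It held 5.92, 6.46 and 7.26 CPM in Veh M[0], 7.26, 8.79 and 7.91 with RSM (log2 fold change 0.29 ± 0.25, FDR = 0.393) and 0.856, 0.615 and 0.789 with HC3 (-3.11 ± 0.33, FDR = 3.11e-07). The RSM and Veh libraries overlapped, and the HC3 libraries were below both. In M[IL-4], *mt-Nd3* fell by 0.68 ± 0.25 with RSM (FDR = 0.0371) and by 4.69 ± 0.35 with HC3.

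In all, HC3 lowered 11 of 11 mitochondrial members in M[0] and in M[IL-4], all of them called, with medians of -3.96 and -4.69. Over all genes tested, 21.5% were lower and 6.11% called lower with HC3 in M[0] at a median of 0.0227, and 19.9% and 5.53% in M[IL-4] at a median of 0.00626. RSM lowered 10 of 11 in M[0] (10 called, median -1.71) and 11 of 11 in M[IL-4] (10 called, median -1.99), where 20.7% of all genes were lower and 6.51% called lower in M[0] (median 0.0053) and 18.5% and 6.00% in M[IL-4] (median 0.0186).

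The rows of the mitochondrial rRNAs, which are not subunit genes but lie on the same chromosome upstream of *mt-Nd1*, went the other way. *mt-Rnr2* had 390.5, 382.9 and 329.0 CPM in Veh M[0], 22130, 22760 and 15948 with HC3 and 2002, 1569 and 1698 with RSM. *mt-Rnr1* rose by 6.08 ± 0.23 (FDR = 2.31e-13) and *mt-Rnr2* by 5.79 ± 0.19 with HC3 in M[0], and by 2.51 ± 0.20 and 2.26 with RSM. The summed rRNA level per summed subunit mRNA was 0.0283 ± 0.0018 in Veh M[0], 30.5 ± 4.56 with HC3 and 0.522 ± 0.0975 with RSM. Because the libraries were poly-T selected, these values concern RNA recovered by that selection, and total mitochondrial RNA was not measured here.

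**Figure D2:**
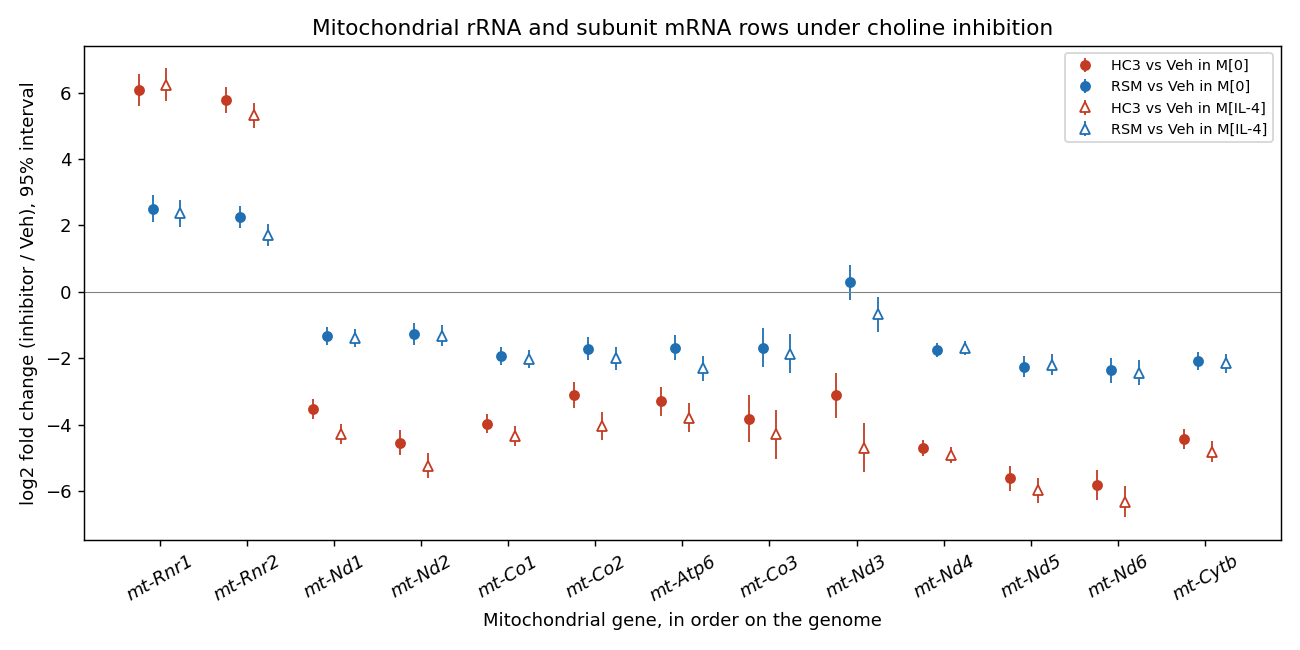
Log2 fold changes (inhibitor over Veh) with their 95% intervals for the 2 mitochondrial rRNA genes and the 11 subunit genes in chromosomal order, in red for HC3 and blue for RSM, with filled circles for M[0] and open triangles for M[IL-4]. The rRNA genes lie above 0 in all 4 comparisons, the subunit genes below it except *mt-Nd3* with RSM in M[0] (0.29), and the lowest point is *mt-Nd6* with HC3 in M[IL-4] (-6.31).

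The direct comparison of the inhibitors, which were used at different doses (250 and 5 µM), had 11 of 11 mitochondrial members lower with HC3 than with RSM in M[0] (median -2.35) and in M[IL-4] (median -2.88). The smallest differences were those of *mt-Co2* in M[0] (-1.40) and *mt-Atp6* in M[IL-4] (-1.49), and the largest were those of *mt-Nd6* in M[0] (-3.46) and *mt-Nd3* in M[IL-4] (-4.01). Of these, *mt-Co2*, *mt-Atp6* and *mt-Nd3* have a copy of nearly their whole transcript and held only 2 to 416 counts in a library. Among all genes, 7.43% were lower with HC3 than with RSM in M[0], where 6.18% were higher. In M[IL-4] these shares were 8.03% and 4.97%. Of the 80 nuclear members, *Atp5g1* (0.20, FDR = 0.045) was higher with HC3 in M[0] and *Atp5b* (0.16, FDR = 0.0342) in M[IL-4], and none was lower. With a replicate block within each polarization, 8 nuclear members were higher with HC3 in M[0], where 2055 of 14979 genes were higher. In M[IL-4], 2 were then higher and 1 lower, where 1592 genes were higher and 2020 lower. Neither *Atp5g1* nor *Atp5b* passed when any of replicates 1, 2 and 3 was left out. Nor did they without the count filter or with only the compared groups, and *Atp5g1* did not pass with scaling by library size alone.

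Nuclear subunits in M[0] were split in direction. With HC3, 10 of 80 were higher and 8 lower (median 0.06), where 22.6% of all genes were higher, and with RSM 5 were higher and 9 lower (median -0.0029), where 20.5% were higher. Both shares are under the background in each direction. The split with RSM depended on the scaling, with 8 higher and 5 lower by library size alone, and with HC3 it was then 13 and 6. Of 14979 genes, 3635 were then higher and 2703 lower with RSM, and 3779 and 2898 with HC3. With a replicate block within each polarization, 8 were higher with RSM, where 3853 of 14979 genes were higher. Without replicate 1 the counts were 6 higher with HC3, and 3 higher with RSM, where 2505 and 2387 of 14647 genes were higher. Without replicate 2, 3 were lower with HC3 and 5 with RSM, where 2871 and 2763 of 14690 genes were lower. Without replicate 3, 6 were higher and 3 lower with HC3, and 3 higher and 5 lower with RSM. Of 14686 genes, 2043 were then higher and 2221 lower with HC3, and 1839 and 2035 with RSM.

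By complex, 7 of 37 nuclear members of complex I were higher and 2 lower with HC3 in M[0], and 2 and 1 with RSM. Those higher with HC3 included the accessory subunits *Ndufb6* (0.65, FDR = 0.00038), *Ndufa6* (0.36) and *Ndufb9* (0.32), and *Ndufs8*, an iron-sulfur core subunit, was lower (-0.28). *Ndufb6* shares 39.0% of its exonic length with *Smim27* on the opposite strand, and the strand setting of the count is not given in the sources used here. In complex II, the flavoprotein *Sdha* fell by 0.17 and 0.30 and the membrane anchor *Sdhc* by 0.27 and 0.32, while *Sdhb* (0.00 and -0.04) and *Sdhd* did not pass. In complex V, *Atp5b*, the catalytic β subunit, rose by 0.34 (FDR = 1.32e-05) and 0.23 (FDR = 8e-04), whereas *Atp5a1*, the α subunit it pairs with, fell by 0.14 and 0.13 and *Atp5j2* by 0.31 and 0.26.

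In M[IL-4], members that fell outnumbered those that rose in every complex. With HC3, 30 of 80 nuclear members were lower (37.5%) and 3 higher (median -0.21), and with RSM 34 were lower (42.5%) and 4 higher (median -0.23), where 19.9% and 18.5% of all genes were lower and 18.9% and 20.1% higher. All 4 members of complex II fell with both inhibitors, as did 9 (HC3) and 10 (RSM) of 17 in complex V, 3 and 4 of 8 in complex III, 5 and 5 of 14 in complex IV and 9 and 11 of 37 in complex I. The falls were small, with medians per complex between -0.15 (complex IV with HC3) and -0.43 (complex II with RSM). Without replicate 3 the numbers lower were 14 and 17, where 1930 and 1814 of 14686 genes were lower. Without replicate 1 those higher were 1 (HC3) and 2 (RSM), where 2267 and 2335 of 14647 genes were higher. With a replicate block within each polarization, 8 were higher with HC3, where 3684 of 14979 genes were higher. Without replicate 2 the number higher with RSM was 1 (2685 of 14690 genes), and without replicate 3 it was 2 (1734 of 14686 genes).

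**Figure D3:**
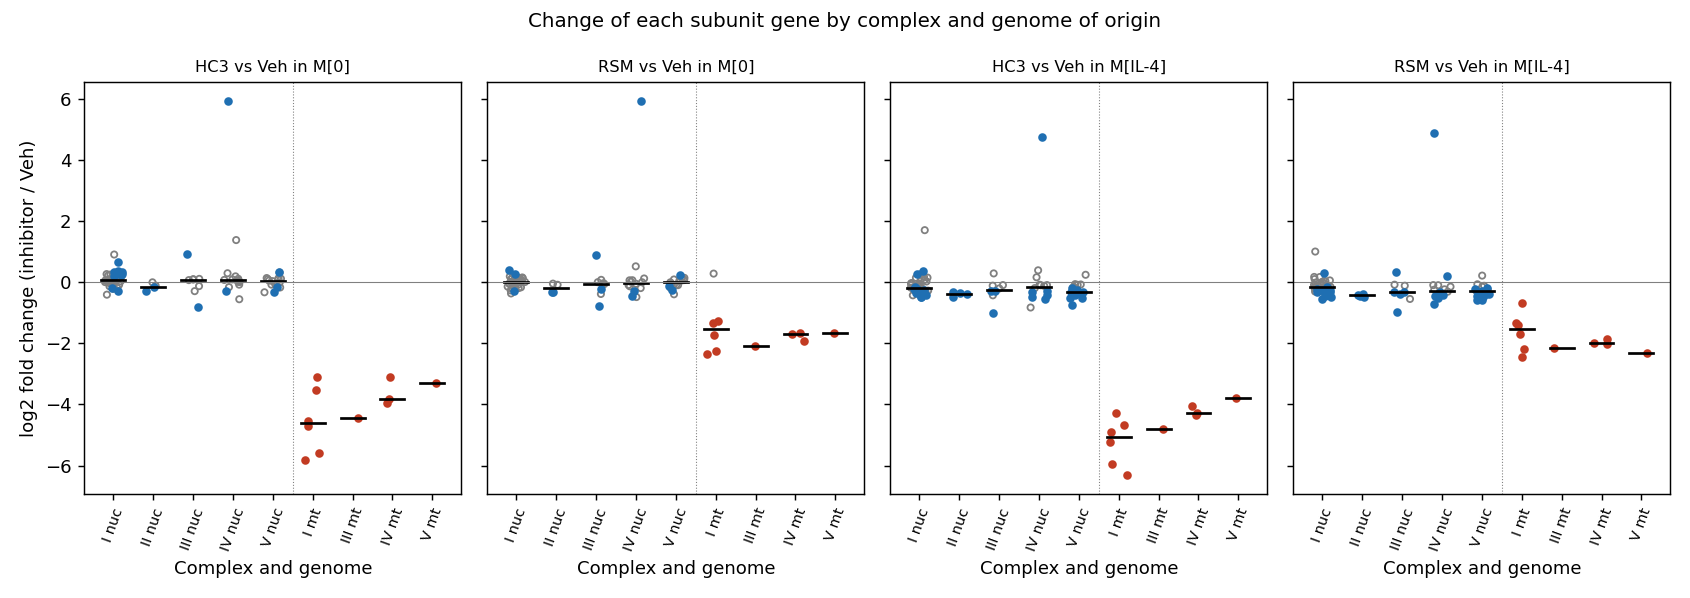
Log2 fold change (inhibitor over Veh) of each of the 91 tested members, by complex and genome, with 1 panel per comparison, filled points for genes that passed (blue nuclear, red mitochondrial), open points for those that did not and a black line at each median. For complex I the mitochondrial medians are -4.62, -1.53, -5.07 and -1.54 from left to right, nuclear medians of all complexes lie between -0.43 and 0.08, and the blue point between 4.76 and 5.94 is *Cox6a2*.

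Per complex, the nuclear sums in M[IL-4] were 0.91 and 0.893 of Veh for complex I with HC3 and RSM, 0.774 and 0.743 for complex II, 0.843 and 0.835 for complex III, 0.921 and 0.889 for complex IV and 0.848 and 0.819 for complex V. *Sdhb*, the iron-sulfur subunit of complex II, held 110.0, 114.3 and 117.7 CPM in Veh M[IL-4], 96.3, 90.1 and 90.8 with HC3 and 86.3, 90.1 and 88.2 with RSM. It fell by 0.30 ± 0.06 (FDR = 0.00028) and 0.37 ± 0.06 (FDR = 3.27e-05), and no inhibitor library reached the Veh libraries. In M[0] its libraries ran from 76.8 to 87.7 CPM with all 3 treatments overlapping. *Cox6b1*, an intermembrane-space subunit of complex IV, fell in all 4 comparisons, by 0.28 and 0.46 without IL-4 and by 0.55 and 0.70 with it, and so did *Ndufa4*, by 0.19 and 0.29 and by 0.49 and 0.53. *Cox4i1*, the ubiquitous isoform of a regulatory subunit, had 187.3 to 245.4 CPM in the 18 libraries and passed in none of the 4 comparisons. When replicates were blocked within each polarization, it passed with RSM in M[IL-4] alone (-0.14, FDR = 0.0147). The tissue isoforms *Cox4i2* and *Cox7a1* held at most 1.61 CPM in any library and passed in no comparison. A list of 22 nuclear core subunits also took in subunits without a catalytic centre, such as *Cox4i1*, *Cox5a*, *Cox5b*, *Uqcrc1* and *Uqcrc2*. Of the 22, 14 were lower and 0 higher in M[IL-4] with either inhibitor, where 19.9% (HC3) and 18.5% (RSM) of all genes were lower. In M[0], 4 were lower and 1 higher, where 21.5% and 20.7% of all genes were lower and 22.6% and 20.5% higher.

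*Cox6a2*, the heart and skeletal muscle isoform of a complex IV subunit, was the nuclear member that moved most. It lies at chr7:128205435-128206387 (-) of GRCm38, in 3 exons. Its counts were 2, 11 and 11 in Veh M[0], 513, 507 and 571 with HC3, and 511, 518 and 551 with RSM. In M[IL-4] they were 31, 8 and 25 with Veh, 670, 496 and 587 with HC3 and 738, 620 and 657 with RSM. The level thus went from 0.449 ± 0.295 CPM to 27.8 ± 2.06 and 27.5 ± 0.646 in M[0], and from 1.18 ± 0.632 to 32.5 ± 5.25 and 35.3 ± 2.13 in M[IL-4], with log2 fold changes of 5.94 ± 0.29 (FDR = 7.13e-12) and 5.92 ± 0.29 (FDR = 9.14e-12), and of 4.76 ± 0.24 (FDR = 2.48e-11) and 4.88 ± 0.24 (FDR = 1.77e-11). Every inhibitor library was above every Veh library, and the inhibitors differed by 0.01 (95% interval -0.34 to 0.37) in M[0] and by -0.12 (-0.47 to 0.23) in M[IL-4]. From M[0] to M[IL-4] in Veh it rose by 1.40 ± 0.44 (FDR = 0.0203), which did not pass without replicate 1 (0.58), without replicate 3 (1.53) or with only the compared groups (1.39). *Cox6a2* shares 10.3% of its exonic length with *Itgad*, which is on the opposite strand and held 0.205 to 0.995 CPM in all libraries.

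*Cox6a1*, the ubiquitous isoform, remained far above it, with 108.7, 131.6 and 139.9 CPM in Veh M[0], 135.8, 126.1 and 149.6 with HC3 and 126.6, 116.9 and 123.8 with RSM. It did not pass in any inhibitor comparison (0.11 and -0.05 in M[0], -0.12 and -0.23 in M[IL-4]), although with a replicate block within each polarization it passed with RSM in M[IL-4] (-0.22, FDR = 0.0235). The nuclear members called against Veh were thus 2 genes, *Cox6a2* upward in all 4 comparisons and *Uqcrh* downward for HC3 in M[IL-4]. Over all genes 5.93%, 5.05%, 4.72% and 5.05% were called upward (HC3 and RSM in M[0], then in M[IL-4]). In the same order, 6.11%, 6.51%, 5.53% and 6.00% were called downward. With a replicate block within each polarization, *Ndufa4l2* was also called upward with HC3 in M[IL-4] (1.81, FDR = 0.00679). Without the block it did not pass (1.71, FDR = 0.076), and it held 180 counts over all libraries.

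*Uqcrh*, the hinge protein of complex III between cytochrome c1 and cytochrome c, fell in all 4 comparisons. Its libraries held 71.8, 75.4 and 64.7 CPM in Veh M[0], 42.0, 43.4 and 36.4 with HC3 and 44.2, 38.6 and 39.6 with RSM. In M[IL-4] they held 77.1, 76.8 and 88.6 CPM with Veh, 40.5, 43.8 and 36.4 with HC3 and 36.0, 46.7 and 41.8 with RSM. No inhibitor library overlapped with Veh, and the log2 fold changes were -0.80 ± 0.10 (FDR = 3.18e-06), -0.79 ± 0.10 (FDR = 3.73e-06), -1.01 ± 0.10 (FDR = 2.15e-07) and -0.96 ± 0.10 (FDR = 3.19e-07). Per length, *Uqcrh* stood beside *Uqcr10* at the top of complex III in Veh M[0] (57.1 ± 4.42 and 55.8 ± 1.06 RPKM, which overlapped), and in the 4 inhibitor groups it stood below *Uqcr10* and the Rieske protein gene *Uqcrfs1*.

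*Uqcrq*, a small subunit of the same complex, rose in M[0]. It had 36.4, 44.6 and 44.5 CPM with Veh, 69.9, 78.1 and 88.3 with HC3 (0.91 ± 0.13, FDR = 1.03e-05) and 74.0, 78.4 and 78.8 with RSM (0.88 ± 0.13, FDR = 1.62e-05), without overlap. In M[IL-4] the Veh libraries were themselves at 70.4, 50.2 and 69.8 CPM, those with HC3 at 91.1, 67.1 and 74.96 (0.29 ± 0.12, FDR = 0.073) and those with RSM at 84.5, 78.1 and 78.5 (0.34 ± 0.12, FDR = 0.0376). The last of these did not pass without replicate 2 (0.20) or without replicate 3 (0.43), and with a replicate block within each polarization *Uqcrq* also passed with HC3 in M[IL-4] (0.29, FDR = 0.00146).

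**Figure D4:**
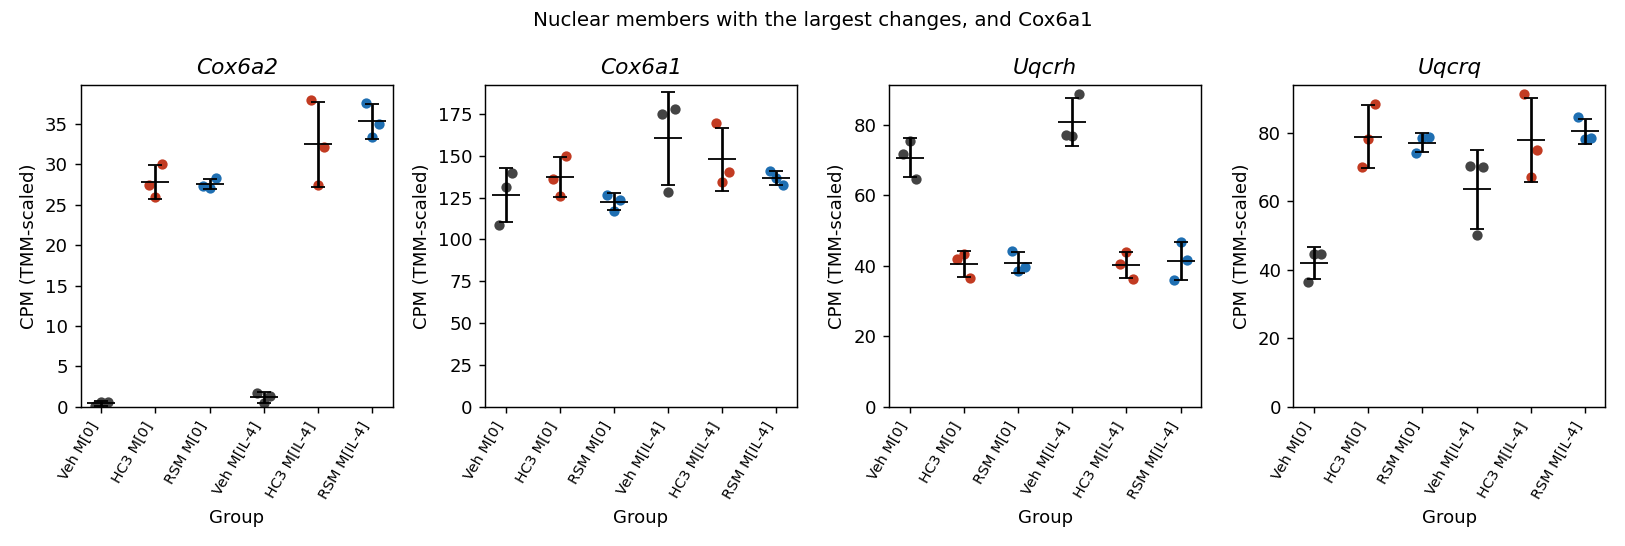
CPM (TMM-scaled, linear axis from 0) in the 3 libraries of each group, with the group mean and its SD, for *Cox6a2*, *Cox6a1*, *Uqcrh* and *Uqcrq*. *Cox6a2* is at most 1.67 CPM in the Veh libraries and at least 26.0 CPM in the inhibitor libraries, *Uqcrh* is at least 64.7 and at most 46.7 CPM, and *Cox6a1* overlaps between treatments.

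Upstream sequence is shown for *Uqcrh*, as the nuclear member that fell most, for *Cox6a1*, as the ubiquitous isoform of the pair, and for *Atp5g3*, whose inhibitor effect differed between M[0] and M[IL-4]. The 250 bases before the RefSeq start (GRCm38.p6) lie at chr4:116075071-116075320 (-), chr5:115348959-115349208 (-) and chr2:73911327-73911576 (-). Capitals mark letters searched as motif cores on either strand, which are CCGGAAG for ETS factors (read as CTTCCGG on the other strand), GCGCATGCG for NRF1 (overlapping on both strands in *Cox6a1*) and TCAAGGTCA for estrogen-related receptors (read as TGACCTTGA).
Uqcrh: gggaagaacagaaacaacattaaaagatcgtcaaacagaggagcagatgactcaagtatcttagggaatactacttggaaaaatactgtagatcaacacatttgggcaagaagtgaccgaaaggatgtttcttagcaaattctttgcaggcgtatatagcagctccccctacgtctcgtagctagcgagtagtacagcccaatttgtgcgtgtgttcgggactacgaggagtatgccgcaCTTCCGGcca
Cox6a1: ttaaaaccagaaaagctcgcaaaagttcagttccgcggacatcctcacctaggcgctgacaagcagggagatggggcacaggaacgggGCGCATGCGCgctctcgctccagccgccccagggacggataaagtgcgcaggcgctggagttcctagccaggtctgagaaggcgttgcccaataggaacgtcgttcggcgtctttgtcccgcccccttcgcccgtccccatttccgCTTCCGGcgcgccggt
Atp5g3: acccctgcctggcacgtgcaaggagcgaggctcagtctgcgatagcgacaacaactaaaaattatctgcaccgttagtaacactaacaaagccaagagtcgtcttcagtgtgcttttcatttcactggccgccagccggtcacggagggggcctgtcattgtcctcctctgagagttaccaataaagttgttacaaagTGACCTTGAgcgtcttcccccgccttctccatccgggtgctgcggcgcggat

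Over 68 of the 85 nuclear members with a promoter in the RefSeq table, in windows of 300 bases, the NRF1 core was in 8 (11.8%, against 1.81% of all 27025 promoters), the ETS core in 15 (22.1% against 9.12%) and the YY1 core AAGATGGCG in 6 (8.82% against 1.49%). The estrogen-related receptor core was in 2 (2.94% against 0.407%) and the letters TGATGNAA, searched for C/EBP-ATF factors, in 0 (0.0% against 4.06%). A match is a description of letters in the window and says nothing of binding.

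IL-4 raised nuclear subunits of every complex in Veh cells, and fewer members passed under either inhibitor. With Veh, 47 of 80 nuclear members (58.8%) were higher in M[IL-4] than in M[0] and 0 lower (median 0.32), where 16.1% of all genes were higher and 14.9% lower (median -0.0078). Those higher were 15 of 37 in complex I, 4 of 4 in complex II, 6 of 8 in complex III, 9 of 14 in complex IV and 13 of 17 in complex V. Without replicate 3 the count was 19, and over all genes 1257 of 14686 were then higher, against 2417 of 14979 with all libraries. It was 60 without replicate 2 (2028 of 14690 genes) and 33 without replicate 1 (1946 of 14647 genes). With HC3, 4 nuclear members were higher (median 0.09, with 7.22% of all genes higher and 7.48% lower) and with RSM 7 (median 0.13, with 8.79% and 6.74%), and 0 were lower in either. Without replicate 3 these counts were 0 and 0, where 468 and 642 of 14686 genes were higher. Without replicate 2 they were 2 and 1 (878 and 992 of 14690 genes), and by library size alone 1 and 1 (870 and 1043 of 14979 genes).

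*Atp5b* had 478.2, 495.0 and 497.1 CPM in Veh M[0] and 735.6, 747.7 and 756.2 in Veh M[IL-4], a rise of 0.61 ± 0.05 (FDR = 2.02e-08). With HC3 the change from M[0] to M[IL-4] was 0.20 ± 0.05 (FDR = 0.00797) and with RSM 0.15 ± 0.05 (FDR = 0.0411), from 643.8, 601.4 and 622.3 CPM to 738.0, 699.5 and 711.2, and from 597.8, 554.2 and 576.2 to 642.6, 630.6 and 647.5. The M[0] and M[IL-4] libraries did not overlap under any treatment. *Atp5g3*, which encodes a copy of the membrane ring subunit c, rose from 81.4, 97.7 and 98.5 CPM to 145.1, 127.0 and 151.4 with Veh (0.61 ± 0.09, FDR = 6.02e-05) and held 92.4, 93.5 and 99.4 against 111.1, 89.5 and 94.9 with HC3 (0.05 ± 0.09, FDR = 0.795). Its paralog *Atp5g1* rose by 0.57 with Veh and *Atp5g2* by 0.32.

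Tested as an interaction, the inhibitor effect was lower in M[IL-4] than in M[0] for 10 nuclear members with HC3 and 9 with RSM, and higher for 0. Among all genes the HC3 interaction was positive in 3.08% and negative in 3.40%, and the RSM interaction in 5.05% and 4.14%. Complex V gave 5 of these members with either inhibitor (*Atp5a1*, *Atp5b*, *Atp5g1*, *Atp5g3* and *Atp5o*) and complex II *Sdhb* and *Sdhd*, with *Uqcrfs1* in complex III and *Cox5a* in complex IV, and *Uqcrq* with HC3. The interaction of *Atp5b* was -0.40 ± 0.07 with HC3 (FDR = 0.00143) and -0.45 ± 0.07 with RSM (FDR = 0.000274). *Atp5o* shares 35.6% of its exonic length with 2 genes on the opposite strand, and *Cox5a* shares 12.8% and *Atp5a1* 4.1% with 1 each. Without replicate 3 no member passed with either inhibitor, where 40 (HC3) and 111 (RSM) of 14686 genes had a negative interaction. The nuclear counts were 2 and 3 without replicate 1, where 217 and 364 of 14647 genes were negative. They were 5 and 8 without replicate 2 (307 and 440 of 14690 genes). With a replicate block within each polarization they were 23 and 19 (1337 and 1339 of 14979 genes).

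With IL-4 in Veh, the share of mitochondrial members that were higher (18.2%) was near that of all genes (16.1%). *mt-Nd3* (0.76, FDR = 0.0258) and *mt-Atp6* (0.48, FDR = 0.034) were the 2 higher of 11 (median 0.31), with HC3 *mt-Nd1* was lower (-0.43, FDR = 0.031; median -0.29), and with RSM none passed (median 0.12). The interaction was negative for *mt-Nd1* with HC3 (-0.75) and passed for no mitochondrial member with RSM. With a replicate block within each polarization, 7 mitochondrial members passed in the HC3 interaction and 1 in the RSM interaction, as did *Uqcrq* in the latter (-0.53, FDR = 0.000475). Of 14979 genes, 1337 (HC3) and 1339 (RSM) then had a negative interaction.

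**Figure D5:**
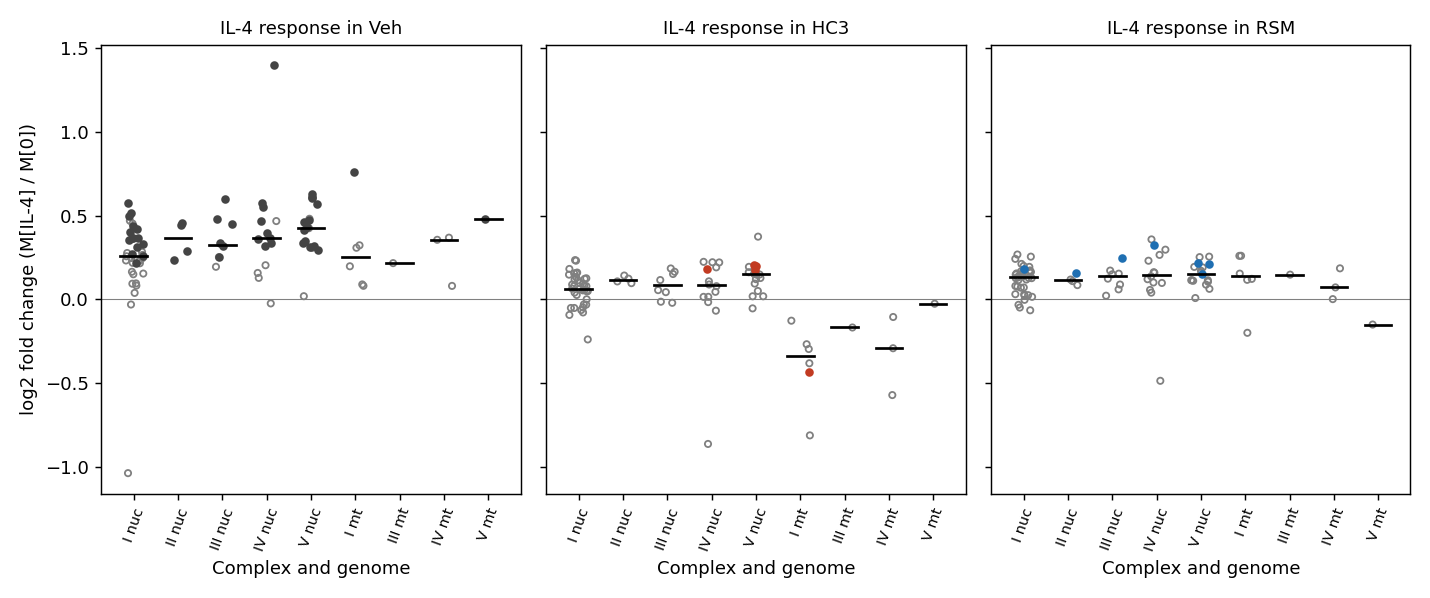
Log2 fold change of M[IL-4] over M[0] for each tested member with Veh, HC3 and RSM, by complex and genome, with filled points for genes that passed and a black line at each median. The nuclear medians by complex are 0.26 to 0.43 with Veh and closer to 0 with either inhibitor, and the mitochondrial medians are below 0 with HC3.

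The order of levels per length within complexes was mostly kept. *Ndufa2* led complex I in all 6 groups (78.9 ± 24.3 RPKM in Veh M[0]), and *Cox6a1* (180.5 ± 23.1 RPKM) and *Cox8a* (142.4 ± 30.8) led complex IV, overlapping with each other in Veh M[0]. In complex II, *Sdhd* (66.5 ± 4.25 RPKM) and *Sdha* (55.2 ± 2.72) stood above *Sdhc* (39.3 ± 1.80) and *Sdhb* (37.4 ± 1.93), whose spreads overlapped. In complex V, *Atp5a1* stood above *Atp5b* in Veh M[0] (157.9 ± 4.46 and 115.7 ± 2.44 RPKM), while with HC3 their libraries overlapped both in M[0] (*Atp5a1* 143.0 ± 3.29, *Atp5b* 146.9 ± 5.00) and in M[IL-4] (164.6 ± 2.63 and 169.0 ± 4.65).

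Assembly factors, which build the complexes without staying in them, were read from a list of 50 genes of which 48 were tested. In M[0], 15 were higher (31.2%, against 22.6% of all genes) and 3 lower with HC3 (median 0.21), and 14 (29.2%, against 20.5%) and 1 with RSM (median 0.19). In M[IL-4] these counts were 7 (14.6%, against 18.9%) and 6 (median 0.07) with HC3 and 8 (16.7%, against 20.1%) and 3 (median 0.04) with RSM. With IL-4 in Veh, 10 were higher (20.8%, against 16.1%) and 0 lower. *Ndufaf4*, a complex I assembly factor, rose by 0.95, 0.75, 0.51 and 0.30 (HC3 and RSM in M[0], then in M[IL-4]), *Ecsit*, another, by 0.70, 0.44, 0.71 and 0.41, and *Timmdc1* by 0.63, 0.44, 0.53 and 0.37. Of 8 tested chain genes that the symbol rule leaves out, 4 were higher and 2 lower with HC3 in M[0], 3 and 3 with RSM, 1 and 3 with HC3 in M[IL-4] and 1 and 4 with RSM, where the shares of all genes were 22.6% and 21.5%, 20.5% and 20.7%, 18.9% and 19.9%, and 20.1% and 18.5%. With so few genes, these counts are given as a description. *mt-Nd4l*, a membrane subunit gene of complex I, had 2.49, 2.29 and 2.26 CPM in Veh M[0], 0.268, 0.102 and 0.263 with HC3 and 1.28, 1.78 and 1.18 with RSM, and fell by 3.44 and 0.73. *Cycs*, which encodes cytochrome c, rose by 0.71 and 0.54 in M[0]. The inhibitor effect on *Cycs* was lower in M[IL-4], with interactions of -0.57 (HC3, FDR = 0.00253) and -0.50 (RSM, FDR = 0.00472). *Higd1a*, which associates with complex IV, rose by 0.77, 0.78, 0.46 and 0.40.

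Of 9 tested regulators of mitochondrial gene expression, *Ppargc1b*, a coactivator of nuclear genes for mitochondrial proteins, held 1.60, 1.23 and 1.99 CPM in Veh M[0] and 8.83, 9.93 and 7.73 in Veh M[IL-4], a rise of 2.45 ± 0.21 (FDR = 3.98e-08). In M[IL-4] it held 5.15, 3.43 and 3.83 CPM with HC3 (-1.09 ± 0.19, FDR = 0.000132) and 2.85, 2.85 and 2.45 with RSM (-1.70 ± 0.20, FDR = 1.1e-06), all below the Veh libraries. Of the 9, 1 was higher and 1 lower with HC3 in M[0], 2 and 0 with RSM, and 2 and 2 with either inhibitor in M[IL-4], which is 0.0% to 22.2% of the list against 18.5% to 22.6% of all genes. *Ppargc1b* was the only 1 higher with IL-4 in Veh. Its interaction was -1.58 with HC3 (FDR = 0.00256) and -1.96 with RSM (FDR = 0.00029). *Pprc1*, a related coactivator, rose by 0.68, 0.60, 0.52 and 0.43.

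The 4 IL-4 response genes *Arg1*, *Chil3*, *Retnla* and *Mrc1* were higher in the libraries labelled as exposed to IL-4 than in M[0] with each treatment. This direction does not mean that their response was of equal size under the inhibitors. The paper reports *Retnla* among the genes that HC3 and RSM lowered most. Macrophage markers were present in every group, and their summed level over 9 genes also moved, from 21451 CPM in Veh M[0] to 9326 with HC3 and 16833 with RSM, and from 13766 to 8961 and 14913 in M[IL-4]. With HC3, 9 of 9 were lower in M[0] and 8 of 9 in M[IL-4], where 21.5% and 19.9% of all genes were lower. With RSM 7 and 1 of the 9 were lower, where 20.7% and 18.5% of all genes were. Stromal markers (5 of 6 tested) summed to 506.6 to 855.2 CPM in Veh M[0], 1199 to 1644 with HC3 and 997.8 to 1423 with RSM, and to 278.3 to 647.7, 550.4 to 1038 and 527.3 to 1045 in M[IL-4]. Neutrophil, B cell, T cell, erythroid, dendritic, and basophil and mast cell markers summed to at most 5.92 CPM in any library. The part of these shifts in the subunit results was not tested.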

How the data were processed

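Poly-T selected mRNA of 18 BMDM libraries in 6 groups was sequenced. Per the labels and methods, the authors used fastp for trimming, STAR (local mode) for alignment to GRCm38 and Picard to mark duplicates, which stayed in, and counted confidently mapped pairs over exons with featureCounts. The deposited values are raw counts per Ensembl gene, and 0 columns were left unused. Tool versions, annotation release and strand setting are not given in the sources used here.

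Symbols, positions and union exon lengths came from a GRCm38 gene annotation, matching 55144 of 55385 rows. A gene needed 10 counts or more in 2 libraries or more to be tested (14979 genes). The fit used edgeR 4.0.16 under R 4.3.3 (TMM, then glmQLFit with glmQLFTest), all 18 libraries, 1 coefficient per group and no block, because the methods name no covariate. P-values were Benjamini-Hochberg adjusted over all genes. A gene passed at an FDR under 0.05 and was called if its log2 fold change also reached 1 or -1. CPM are scaled by TMM, RPKM divide them by union exon length, and sums per complex are descriptions without a test. Transcript copies were searched with blastn 2.17.0 (minimum identity 98%, minimum length 100 bp). Promoter sequence came from RefSeq (GRCm38.p6), and 68 of 85 nuclear members matched.

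Members, gene lists and alternatives were chosen with earlier results of these data known. Named genes are all mitochondrial members, members called or passing an interaction, those with the lowest FDR per complex and direction, core subunits, isoform and *Atp5g* paralogs, the highest per length, and up to 3 genes of other lists. Any further gene was named after its values were seen. The list of assembly factors, of chain genes the symbols miss, of regulators and of cell markers came from general knowledge.

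Depth was 17457796 to 19522255 counts per library. Within groups, the chi-square statistic between replicates was 6.3 to 20.3 per gene, far over the value of about 1 that sampling noise gives. Residuals of libraries with the same replicate number correlated within a polarization state (0.183 to 0.564, over 0.1 in 18 of 18 pairs) and in 16 of 27 pairs across states. A replicate block within each polarization was therefore added after the data were seen. Other alternatives were DESeq2 1.42.0, a replicate block, a fit to only the compared groups, library size scaling, no count filter, mitochondrial genes left out and each replicate number left out. The steps were tested on simulated data. Figures used matplotlib 3.10.9.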

Additional observations from a re-analysis of the deposited data

Results flagged for a closer look

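For 20 combinations of gene and inhibitor, the effect of the inhibitor differed between M[IL-4] and M[0] by a test of the difference itself (edgeR interaction term, FDR under 0.05 over all genes tested). With HC3 the interaction log2 fold changes were -0.5591 for *Atp5g3*, -0.4047 for *Atp5b*, -0.4212 for *Atp5g1*, -0.4673 for *Atp5o* and -0.2735 for *Atp5a1* in complex V. They were -0.3028 for *Sdhb* and -0.3568 for *Sdhd* in complex II, -0.6211 for *Uqcrq* and -0.3926 for *Uqcrfs1* in complex III and -0.2882 for *Cox5a* in complex IV. *mt-Nd1*, at -0.7531, was the only mitochondrial gene among them. With RSM they were -0.4951 for *Atp5g3*, -0.4547 for *Atp5b*, -0.3782 for *Atp5g1*, -0.5414 for *Atp5o*, -0.2609 for *Atp5a1*, -0.3268 for *Sdhb*, -0.3444 for *Sdhd*, -0.2981 for *Uqcrfs1* and -0.3301 for *Cox5a*. Both inhibitors were compared with the same Veh libraries, so these 2 sets of values are not independent of each other. None of them passed when replicate 3 was left out, where 40 (HC3) and 111 (RSM) of 14686 genes had a negative interaction.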

How the results depend on the processing

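Among the single-gene values compared between settings (the 1771 and 254 given below), no fold change reversed. They do not take in every member in every comparison. The medians of the mitochondrial members stayed between -3.99 and -3.92 (HC3) and -1.82 and -1.65 (RSM) in M[0], and between -4.85 and -4.63 and -2.01 and -1.92 in M[IL-4]. Those of the nuclear members ran from -0.00033 to 0.10 and from -0.098 to 0.054 in M[0], where the sign changed with the setting (for HC3 without replicate 1 only), and from -0.25 to -0.10 and -0.31 to -0.18 in M[IL-4]. Of values for single genes, 1771 kept their direction and side of the threshold and 254 no longer passed. The nuclear median of HC3 against RSM in M[IL-4] ran from -0.025 to 0.081. Causes of the changes below were not tested.

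Counts of nuclear members (higher, unless said to be lower) and of all members that passed depended on the setting as follows. By library size alone, RSM in M[0] gave 8 higher and 5 lower, HC3 in M[IL-4] 5, the IL-4 response with HC3 2 in all and 1 nuclear, that with RSM 1 and 1, HC3 against RSM in M[0] 0, and the HC3 interaction 2 mitochondrial. Of 14979 genes, 3635 were then higher and 2703 lower with RSM in M[0], and 3313 higher with HC3 in M[IL-4]. The IL-4 response was higher in 870 (HC3) and 1043 (RSM), HC3 against RSM in M[0] in 838, and the HC3 interaction negative in 480. DESeq2 gave 18 in all and 4 mitochondrial in the HC3 interaction, and 15, 1 and 14 nuclear lower in that of RSM. Over all genes, 669 of 12075 (HC3) and 854 of 12365 (RSM) then had a negative interaction. Without the count filter, HC3 in M[IL-4] gave 5, the IL-4 response with HC3 8 in all and 4 mitochondrial lower, HC3 against RSM 0 in M[0] and 0 higher and 1 lower in M[IL-4], the HC3 interaction 18 in all and 8 mitochondrial, and that of RSM 1 mitochondrial. Of 29054 genes, 2839 were then higher with HC3 in M[IL-4], and the IL-4 response with HC3 was higher in 1247 and lower in 1360. HC3 against RSM was higher in 1147 in M[0], and higher in 980 and lower in 1207 in M[IL-4]. The interaction was negative in 629 (HC3) and 751 (RSM). With mitochondrial genes left out, RSM in M[IL-4] gave 2, where 2796 of 14952 genes were higher. With only the compared groups, RSM in M[IL-4] gave 1, the IL-4 response with HC3 3 in all, 2 mitochondrial lower and 1 nuclear, HC3 against RSM 0 in M[0] and 0 higher and 1 lower in M[IL-4], and the HC3 interaction 5 in all and 4 nuclear lower. Over all genes, 2459 were then higher with RSM in M[IL-4], and the IL-4 response with HC3 was higher in 955 and lower in 1006. HC3 against RSM was higher in 981 in M[0], and higher in 564 and lower in 918 in M[IL-4]. The HC3 interaction was negative in 398.

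With the replicate block, HC3 in M[IL-4] gave 7, the IL-4 response with HC3 2 mitochondrial lower, HC3 against RSM in M[IL-4] 1 nuclear lower, the HC3 interaction 3 mitochondrial and that of RSM 1. Of 14979 genes, 3313 were then higher with HC3 in M[IL-4], and 1772 lower in the IL-4 response with HC3. HC3 against RSM in M[IL-4] was lower in 1533, and the interaction negative in 807 (HC3) and 899 (RSM). With the replicate block within each polarization, RSM in M[0] and HC3 in M[IL-4] gave 8 each, HC3 against RSM 19 in all and 8 nuclear higher in M[0] and 2 higher and 1 lower in M[IL-4], the HC3 interaction 30 in all, 7 mitochondrial and 23 nuclear, and that of RSM 20, 1 and 19. Of 14979 genes, 3853 (RSM in M[0]) and 3684 (HC3 in M[IL-4]) were then higher. HC3 against RSM was higher in 2055 in M[0], and higher in 1592 and lower in 2020 in M[IL-4]. The interaction was negative in 1337 (HC3) and 1339 (RSM). The block changed no other of the counts it was fitted to by over 1.5 times. The block within each polarization was not fitted to the IL-4 responses.

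With each replicate left out in turn, HC3 in M[0] gave 6 to 10 higher and 3 to 7 lower, and RSM 3 to 4 and 5 to 10. Over all genes, 2043 to 2935 were then higher and 2221 to 2880 lower with HC3, and 1839 to 2697 and 2035 to 2763 with RSM. HC3 in M[IL-4] gave 29 to 43 in all, with 1 to 4 higher and 14 to 31 lower, and RSM 29 to 49, 1 to 2 and 17 to 38. Over all genes, 1539 to 2587 were higher and 1930 to 2599 lower with HC3, and 1734 to 2685 and 1814 to 2450 with RSM. The IL-4 response gave 19 to 60 in all and 19 to 60 nuclear with Veh, 0 to 4 in all, 0 to 2 mitochondrial lower and 0 to 4 nuclear with HC3, and 0 to 5 and 0 to 5 with RSM. Over all genes it was higher in 1257 to 2028 with Veh, 468 to 968 with HC3 and 642 to 1030 with RSM, and lower in 315 to 1055 with HC3. HC3 against RSM gave 0 to 0 nuclear in either state, the HC3 interaction 0 to 6 in all, 0 to 1 mitochondrial and 0 to 5 nuclear, and that of RSM 0 to 8 and 0 to 8. Over all genes, HC3 against RSM was higher in 259 to 830 and lower in 403 to 888 in M[0]. In M[IL-4] it was higher in 187 to 662 and lower in 377 to 919. The interaction was negative in 40 to 307 genes (HC3) and 111 to 440 (RSM). The nuclear sum was 5573 CPM (library size alone) and 5752 (mitochondrial genes left out of the total) in HC3 M[0], 5372 and 5414 in RSM M[0], and 5690 (library size alone) in RSM M[IL-4].

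Low counts limit the fold changes of *mt-Nd3* with HC3 and of *Cox6a2* with Veh, and how many read pairs of members with nuclear copies were discarded was not measured here.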
